A study of Cavia porcellus with 24 samples.

Results

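The comparison described here set the second generation of guinea pigs against the first, on the control diet. It held 6 F2 and 6 F1 libraries, 12 of the 24 in the series, chosen from the sample labels by generation and diet. Each library was polyA RNA from the endothelium of 1 carotid artery, collected at 20 weeks of age by passing a lysis reagent through the rinsed vessel. The F1 groups were PC-C (animals 13, 27 and 28), born to F0 dams fed 100% of the ad libitum ration, and PR-C (animals 17, 25 and 36), born to F0 dams that started at 70% of it and received more from mid gestation. The F2 groups were PC-C-C (animals 52, 54 and 55) and PR-C-C (animals 41, 47 and 58), the offspring of F1 daughters of the same 2 arms. All animals were Hartley guinea pigs that ate control chow after weaning, and the F1 animals sequenced were not breeders. The F1 breeders also stayed on control chow, and their mates were unrelated males bought for this purpose. F2 animals therefore had other sires and were raised later than F1 animals, and these differences cannot be told apart from generation. The labels do not give litters, and in the PC arm the F2 animals came from fewer F1 dams than there were animals, so some F2 animals shared a dam. There was 1 female in 6 among F1 and 2 females in 6 among F2. The labels give no harvest date or sequencing run, so a batch of either kind that follows generation cannot be told apart from it. Whether the library of PC-C-C animal 52, or that of PC-C-H animal 51 on the high fat diet, carries another animal's number was not tested, and the labels were kept throughout.

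Arterial endothelial cells line the vessel and meet the blood. They take up lipids, bind chemokines and leukocytes, and pass signals on to the smooth muscle beneath. Food restriction of a pregnant dam reaches her fetus, and in a female fetus also the germ cells from which a further generation comes, so F2 animals of the PR arm descend from cells that were present during the restriction. The comparison of F2 with F1 within each arm asks what differed between generations when the animals themselves ate the same chow. Values are called normalized counts here: the reads counted on a gene divided by the size factor of its library. The table names its 18149 genes by Ensembl identifier, and a symbol was to hand for 147. None of the markers written down for endothelium, smooth muscle, fibroblasts, red cells or leukocytes in general was among these. Nor were those for skeletal muscle or fat cells, or any immediate early gene. The labelled cell type could therefore not be checked against markers here. The study reports its own test of vascular markers, which it took to show endothelial enrichment.

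The genes with a symbol that passed were a chemokine receptor, a blood cell adaptor and a transcriptional coactivator. Ackr3 was 2.49-fold and Samsn1 4.20-fold higher in F2 than in F1, and Cited4 fell by 1.60 on the log2 scale (n = 6 per generation). In each of them PC-C-C animal 52, whose library stood apart in most other genes, was on the side of the other 5 F2 animals. It counted as F2 in the fit that called them, which favours that side, and in Cited4 it lay close to the midpoint. With all 12 libraries and limma, 0 of 11 protein folding genes, 0 of 4 genes of LXR and SREBP and 0 of 6 interferon-stimulated genes passed, while DESeq2 called 2, 0 and 0 of them. Over all genes 2.60% passed with limma and 4.84% with DESeq2, so 0 limma calls in lists this short tells little. The largest changes were in genes known only by identifier. Some had 0 reads in the F1 control animals and were plainly present in 5 of the 6 F2 control animals, and there animal 52 was with F1. In the 12 genes with a gap of at least 10-fold, every high fat library other than that of animal 51, F2 included, also lay with F1.

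Between generations, 344 of 13220 genes passed the test, which is 2.60% of those tested (limma on log2 of the normalized count plus 1, F0 ration as covariate, adjusted p under 0.05). Of these, 152 were higher in F2 (1.15%) and 192 were lower (1.45%). The median log2 fold change over all genes tested was 0.01, and 2543 genes had an unadjusted p under 0.05. With DESeq2 on the recovered reads 878 of 18149 genes passed (4.84%), among them 326 of the 344, and with edgeR 223 passed. Only 14105 of the 18149 genes had a DESeq2 adjusted p, so the 4.84% includes genes that could not pass. With sex as a covariate limma called 136. The 6 F2 libraries and the 6 F1 libraries did not overlap in 178 genes (1.35%), 85 of them among the 344. In 383 genes (2.90%) the generations were apart within each F0 ration and in the same direction, 165 of them among the 344.

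These counts rested on single animals. The library of PC-C-C animal 52 stood apart: without it 1316 of 13143 genes passed with limma (10%), of which 447 were higher and 869 lower in F2. All 344 genes were among the 1316, with the same direction, and 972 genes were added. DESeq2 without animal 52 called 1981 genes and edgeR 1290, and DESeq2 called 1311 of limma's 1316. Leaving out another F2 animal instead lowered the count, to 1 without animal 54, 0 without animal 55 (with 1953 genes at an unadjusted p under 0.05), 7 without animal 41, 96 without animal 47 and 9 without animal 58. Without 1 F1 animal the count was 66 to 243.

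**Figure D1:**
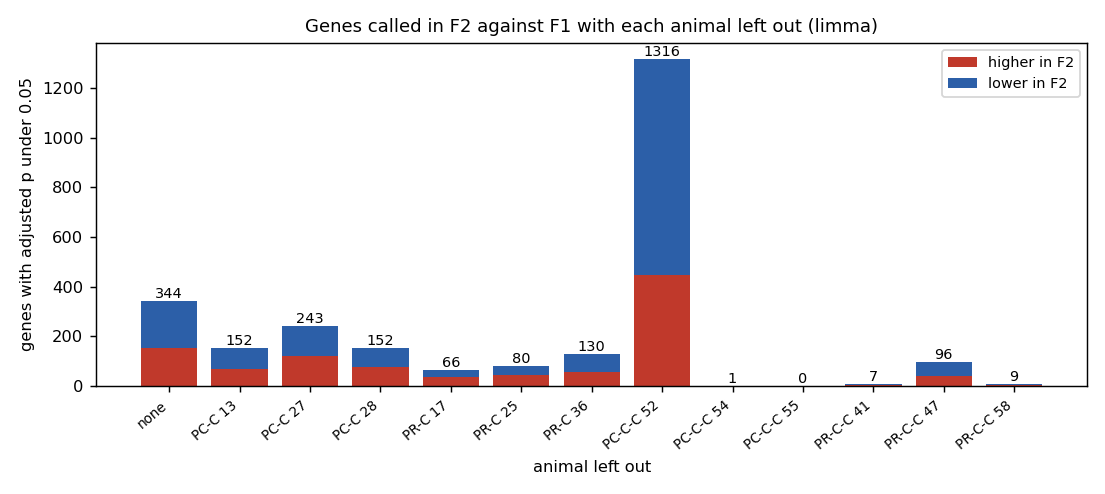
The bars give the number of genes with an adjusted p under 0.05 (limma) in F2 against F1 on the control diet, with all 12 libraries (none) and with each animal left out, split into genes higher and lower in F2. The count was 344 with all libraries and 1316 without animal 52, and it was between 0 and 96 when another F2 animal was left out.

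Each library was then placed by the mean it lay nearer to on the log2 scale. Over all 13220 genes, animal 52 lay nearer to the mean of the 6 F1 libraries in 65.2% and nearer to the mean of the other 5 F2 libraries in 34.8%. None of the other 11 libraries, each set against the other 5 of its own generation and the 6 of the other, lay nearer to the other generation in more than 48.1% of genes. The lowest such share was 31.6%, in PR-C-C animal 41. Among the 344 genes, in whose choice animal 52 had a part, it lay nearer to F1 in 273 and nearer to F2 in 71. Of the 1316 genes, in whose choice it had none, it sided with F1 in 1180 (89.7%) and with the other F2 animals in 136. It sided with F1 in 377 of the 413 genes that differed at least 2-fold and in 803 of the 903 that differed less.

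The same placing over the 1316 genes was made for the libraries on the high fat diet, which had no part in choosing them. In the F1 high fat libraries 11.3% to 29.6% of genes lay nearer to the F2 control mean. In the F2 high fat libraries other than animal 51 this share was 14.8% to 29.3%, so they too lay mostly on the F1 side. The exception was PC-C-H animal 51, with 806 genes (61.2%) nearer to F2. Its most abundant genes, the same number in each library, held 33.6% of its reads, against 22.6% to 25.4% in the other libraries. Whether this moved its placing was not tested. This animal is missing from the study's animal list, and a PC-C-H library was set aside there for quality. The 5 F2 control libraries themselves had 85.3% to 97.3% and the F1 control libraries 6.2% to 10.9%, which the choice of genes fixes. Each of these was left out of the mean it belongs to, and animal 52 entered no mean.

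**Figure D2:**
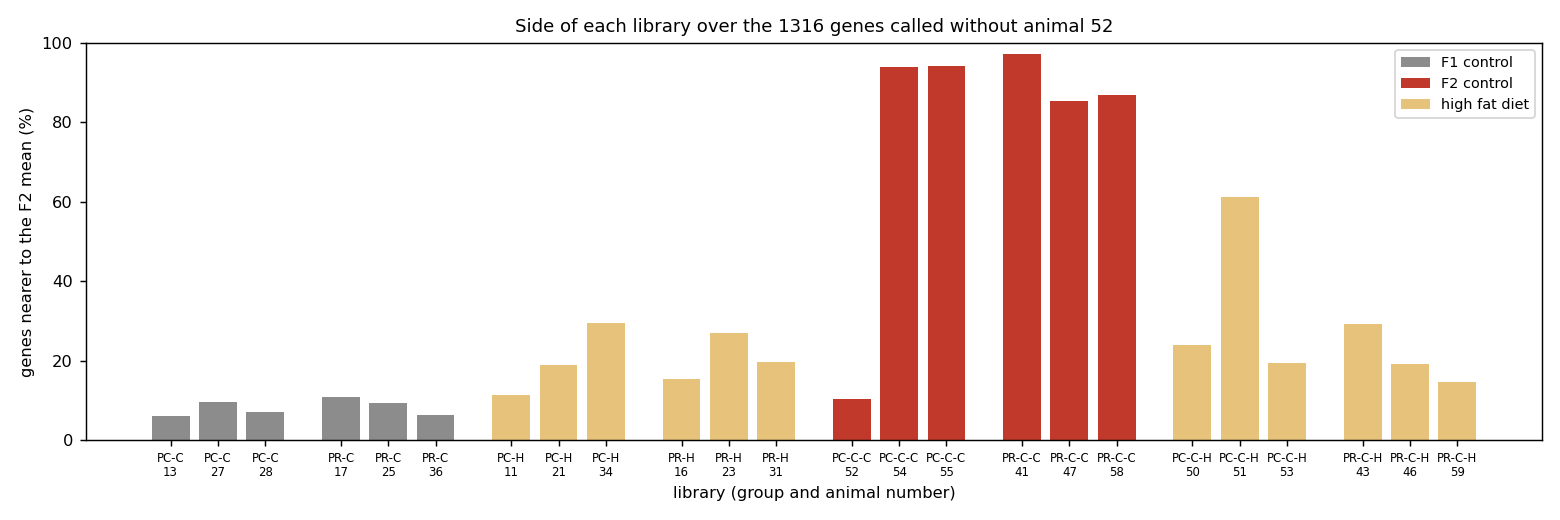
The bars give, for each of the 24 libraries, a percent of the 1316 genes called without animal 52. Counted are genes nearer to the mean of the other 5 F2 control libraries than to that of the 6 F1 control libraries. A library was left out of any mean it belongs to. Animal 52 stands at 10.3%, beside the F1 control libraries (6.2% to 10.9%), and among the high fat libraries only animal 51 is above 50%.

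Reads on genes were 22163509 to 27162017 in the F1 libraries, 14061522 to 24580498 in the other 5 F2 libraries and 26006336 in animal 52. Animal 52 thus lay in the depth range of F1, and 4 of the other F2 animals lay below it. The part of depth in the division was not tested.

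The largest differences belonged to identifiers without a symbol. In 12 genes the other 5 F2 libraries were all at least 10-fold apart from all F1 libraries (the higher side at 50 normalized counts or more, the lower taken as at least 1), 4 higher and 8 lower, and animal 52 lay on the F1 side in all 12. The 11 high fat libraries other than animal 51 also lay on the F1 side in all 12, and animal 51 lay on the F2 side in 4 of the 4 and 7 of the 8. Of the 13220 genes tested, 1128 (8.53%) had no overlap between the other 5 F2 and the 6 F1 libraries, 303 of them among the 344.

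ENSCPOG00000036145 had 0 reads in all 6 F1 libraries and in animal 52. Its normalized counts in the other F2 libraries were 536 and 546 in PC-C-C and 390.2, 736 and 843 in PR-C-C. Against a floor of 3 reads per F1 library, the mean of these 5 animals was at least 211.5-fold higher. ENSCPOG00000031832 was likewise at 0 in F1 and in animal 52, and stood at 176 and 160.2 in PC-C-C and 62.1, 169.7 and 196 in PR-C-C, at least 53-fold above the same floor. In both genes animal 52 was with F1.

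ENSCPOG00000003379 went the other way, at 633 to 1016 with a median of 767 in F1 and 834 in animal 52, against 0 to 2.55 in the other 5 F2 animals. ENSCPOG00000039839 was at 196 to 475 with a median of 258 in F1 and 459 in animal 52, and had 0 reads in the other 5. The F1 mean was at least 77.5-fold above the floor of 3 reads per library. Animal 52 again lay with F1, and above the F1 median, in both. With limma the adjusted p was 0.0187 for each of the 4 identifiers. Each lost its call without animal 41, 54, 55 or 58, and edgeR with all 12 libraries called only the higher pair (adjusted p = 0.0271 and 0.0302, against 0.175 and 0.273 for the lower pair). DESeq2 with all 12 libraries also called only the higher pair (adjusted p = 7.32e-07 and 3.02e-05) and gave the lower pair no p. Without animal 52 the limma adjusted p of ENSCPOG00000036145 was 3.52e-09. The identifier was chosen for no overlap with animal 52 set aside, so this small value follows from the choice and is no support.

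**Figure D3:**
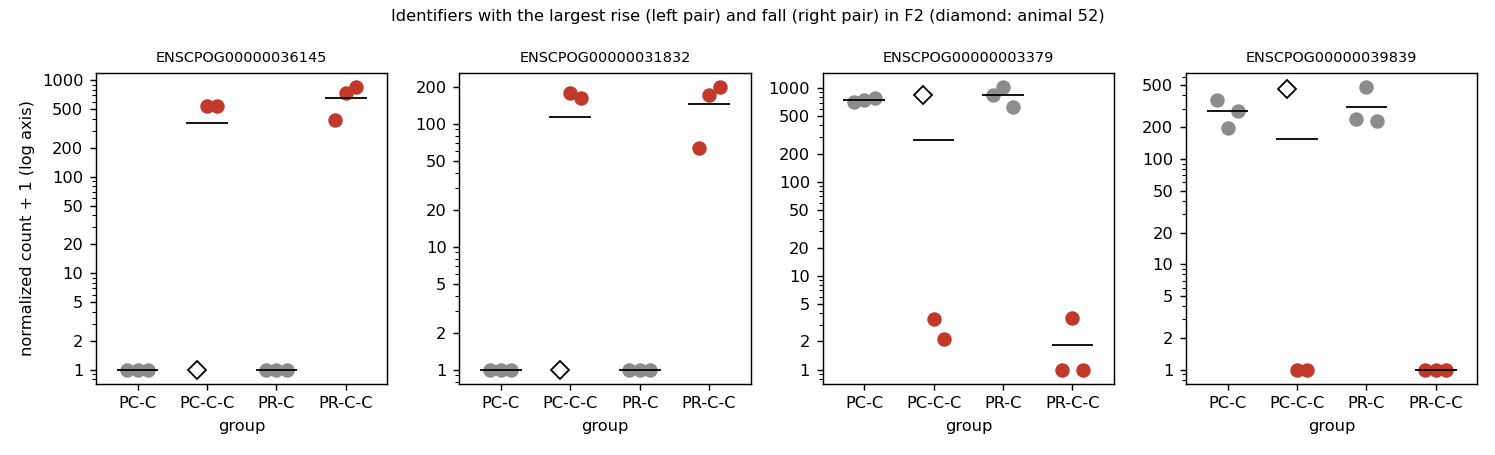
Each panel shows 1 identifier, with the normalized count plus 1 on a log axis for the 3 libraries of each group, a line at the group mean and a diamond for animal 52. In all 4 panels the diamond lies with the grey F1 points, and the other 5 F2 libraries (red) lie at least 10-fold away.

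Among genes with a symbol, 138 were tested and 3 passed (2.17%, near the 2.60% of all genes): Ackr3 and Samsn1 were higher in F2 and Cited4 was lower. In all 3, animal 52 sided with the other F2 animals, and it counted as F2 in the fit that called them, which favours this. The symbols come from the study's list of genes that differ between PC-C and PC-H, so PC-C values had a part in choosing them, while the PR arm shares no animals with that choice. Of the 91 listed genes that were higher in PC-H, 70 were higher in F2 in the PC arm (median log2 fold change 0.16) and 50 in the PR arm (median 0.03). Of the 47 lower in PC-H, 15 were higher in F2 in the PC arm (median -0.17) and 23 in the PR arm (median -0.00). Direction in the PC arm is thus not independent of the list.

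Ackr3, an atypical chemokine receptor that takes up CXCL12 and does not couple to G proteins, had normalized counts of 801, 1217 and 886 in PC-C and 1435, 2051 and 1374 in PR-C. In F2 it had 2355 (animal 52), 1556 and 1725 in PC-C-C and 6886, 4292 and 4502 in PR-C-C. The generations did not overlap within either arm, but PC-C-C animals 54 and 55 were below the highest PR-C animal, and animal 52 was the highest of its group. Ackr3 was 2.49-fold higher in F2 (log2 fold change 1.32 ± 0.185 SE on normalized counts plus 1, n = 6 per generation, limma adjusted p = 0.0187), with 0.96 in the PC arm and 1.68 in the PR arm. Without animal 52 the log2 fold change was 1.28, and the call was lost only when PC-C-C animal 55 was left out (limma adjusted p = 0.0522). The DESeq2 adjusted p was 2.22e-08.

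Samsn1 encodes an adaptor protein of blood cells that restrains B cell activation. It had 10.3, 32.8 and 7.52 normalized counts in PC-C and 13, 24.3 and 23.2 in PR-C. In F2 these were 48.3 (animal 52), 80.9 and 42.6 in PC-C-C and 117, 75.3 and 94.7 in PR-C-C. Every F2 library was above every F1 library, animal 52 included. The change was 4.20-fold (log2 2.07 ± 0.375 SE, limma adjusted p = 0.0187) and was lost without animal 41, 54, 55 or 58. Samsn1 is 1 of 9 members of a B cell and leukocyte list of which 5 were tested and 1 passed, while Pou2af1, Bach2, Siglec1 and Cap11 were under the filter on low values. The summed level of the list was 1352 to 1810 in F1 and 1607 to 2119 in F2, or 1345 to 1786 and 1490 to 2038 without Samsn1, so the ranges overlapped. The medians were 1476 in F1 and 1829 in F2, or 1459 and 1770.5 without Samsn1, and 4 of the 6 F2 sums (2 without Samsn1) were above every F1 sum. The medians of the arms had opposite signs. The median log2 fold change of the 5 tested members was 0.82 in the PC arm, with 4 above 0. In the PR arm it was -0.07, with 2 above 0. The PC arm is not independent of the list the symbols come from. General leukocyte markers had no identifier, and the part of blood cells left in the vessel was not tested. Fewer cells of a type and less RNA per cell cannot be told apart in such samples.

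Cited4, a transcriptional coactivator that binds CBP and p300, had 141, 128 and 177 normalized counts in PC-C and 272, 138 and 84.7 in PR-C. It had 79.6 (animal 52), 24.5 and 24.6 in PC-C-C and 46.1, 80.4 and 67.4 in PR-C-C. All F2 libraries were below all F1 libraries. Animal 52 was close to the midpoint, 0.504 of the way from the F1 mean to the mean of the other F2 animals. Cited4 fell by 1.60 on the log2 scale (SE 0.356, limma adjusted p = 0.0341), and by 1.80 without animal 52. The call held without animal 36 or 52 and was lost when any of the other 10 animals was left out, with adjusted p-values of up to 0.0945. With sex as a covariate it was also lost (limma adjusted p = 0.0535), while Ackr3 and Samsn1 passed.

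**Figure D4:**
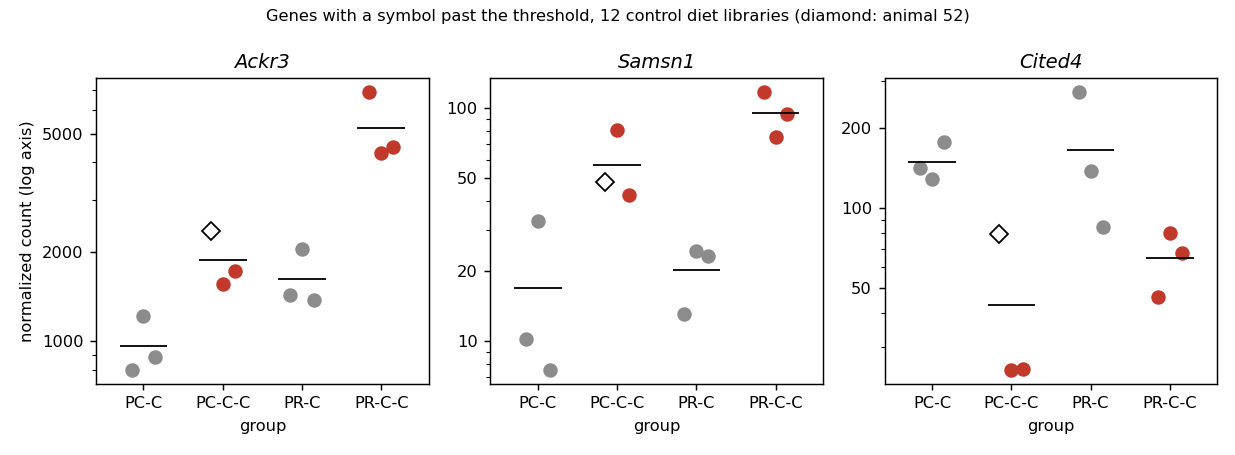
The normalized counts of Ackr3, Samsn1 and Cited4 are shown on a log axis for the 3 libraries of each group, F1 in grey and F2 in red, with a line at the group mean and a diamond for animal 52. In Ackr3 and Samsn1 the F2 points of each arm lie above its F1 points, and in Cited4 they lie below.

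Next in order of p were 22 genes with a symbol that did not pass with limma. They are given by their values, with the log2 fold change ± SE of F2 minus F1 and the side of animal 52. With the 3 above they make 25 genes, of which 18 had a log2 fold change above 0 and 7 below, and in all 25 the sign was the same in both arms, which a choice by p over both arms favours. Animal 52 sided with the other F2 animals in 16 of the 25 and with F1 in 9. It counted as F2 in the fit that chose them, which favours the F2 side, and over all 138 genes with a symbol that were tested it was nearer to F2 in 68 and to F1 in 70. DESeq2 called 12 of the 25, the 3 above and Dnajb11, Hspa14, Cdc42se1, Meox2, Fnbp4, Qrich1, Cnn3, Gpd2 and Znf131. The 22 genes had adjusted p-values of 0.0504 to 0.159 with limma.

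Protein folding genes led this group. Dnajb11, a co-chaperone of the endoplasmic reticulum, was at 1879.5 to 2758 with a median of 2227 normalized counts in F1 and 2595 to 3373 with a median of 2879 in F2. Animal 52, at 2933, was with F2, and the log2 fold change was 0.38 ± 0.0955 (limma adjusted p = 0.0504, DESeq2 0.00774). Hspa14, an Hsp70 relative found at the ribosome, was at 689 to 837 with a median of 713 in F1 and 836 to 1212 with a median of 939.6 in F2. Animal 52 was the lowest F2 animal at 836, just below the highest F1 animal, and sided with F1, with a log2 fold change of 0.39 ± 0.0996 over all libraries (limma adjusted p = 0.0517, DESeq2 0.00407). Cacybp, a calcyclin-binding protein that joins an E3 ubiquitin ligase complex, had 0.28 ± 0.0989, and animal 52 (3505, against an F1 median of 3365) sided with F1. Over the protein folding list of 11 genes, 0 passed with limma, 3 had an unadjusted p under 0.05, 2 passed with DESeq2, and 9 were above 0, as were 51.1% of all genes. Their median log2 fold change was 0.14, beside 0.01 for all genes. Over all genes 2.60% passed with limma, 19.2% had an unadjusted p under 0.05 (limma) and 4.84% passed with DESeq2. All symbols come from the list for PC-C vs PC-H, so the PC arm is not independent evidence of direction. In the PR arm 10 of the 11 were above 0, beside 73 of the 138 genes with a symbol and 51.8% of all genes. On the high fat diet the median of the 11 was -0.25, beside -0.14 for genes with a symbol and 0.02 for all genes. There PC-H values had a part in choosing the genes.

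Of the cytoskeleton and adhesion genes, Cdc42se1, a small effector of the GTPase Cdc42, was at 3046 to 4050.4 with a median of 3611 in F1 and 4028 to 4879 with a median of 4419.8 in F2, a log2 fold change of 0.32 ± 0.0831. Animal 52 (4342) was with F2, and DESeq2 called the gene (adjusted p = 0.00675). Cnn3, the actin-binding calponin of non-muscle cells, had 0.30 ± 0.0879 with animal 52 (7513) on the F2 side. Dync1li1, a light intermediate chain of dynein, had 0.34 ± 0.108, but animal 52 (1942) sided with F1. Dcx, a microtubule-binding protein best known in young neurons, was low and spread widely, at 1.93 to 39.3 in F1 and 11 to 57.4 in F2 with animal 52 (27.5) on the F2 side, and its log2 fold change was 1.64 ± 0.554. Frmd4a, a scaffold of epithelial polarity, had -0.31 ± 0.103, with animal 52 (1584) on the F2 side. Rras2, a Ras family GTPase, had 0.40 ± 0.136, and animal 52 (772) was again with F2 and above the mean of the others. The list of 15 actin, microtubule and dynein genes held 0 calls with limma, 3 genes at an unadjusted p under 0.05 and 1 call with DESeq2, with a median log2 fold change of 0.00. The shares over all genes were 2.60%, 19.2% and 4.84% in the same order.

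Several were regulators of transcription. Meox2, a homeobox factor of vascular and muscle development, was at 256 to 771 with a median of 548 in F1 and 537 to 913 with a median of 805 in F2. Animal 52 (751) was with F2 and the lowest F2 animal was 55, at a log2 fold change of 0.72 ± 0.198 (limma adjusted p = 0.0663, DESeq2 0.0204). Qrich1, a regulator of the response to endoplasmic reticulum stress, was at 536 to 717 in F1 and 351 to 505 in F2, so no libraries overlapped, and animal 52 (479) was with F2. Its log2 fold change was -0.45 ± 0.13 (limma adjusted p = 0.0779, DESeq2 0.0192). Rfx5, which binds promoters of MHC class II genes, had 0.27 ± 0.101 with animal 52 (1663) on the F2 side. Znf131, a zinc finger factor, had 0.31 ± 0.105, and animal 52 (701) lay almost on the F1 mean and sided with F1, although DESeq2 called the gene (adjusted p = 0.0493). Fnbp4, a protein that binds formins, had -0.54 ± 0.151, with animal 52 (1253) on the F2 side and a DESeq2 adjusted p of 0.0123. 7sk, the small nuclear RNA that holds the elongation factor P-TEFb inactive, was at 10.2 to 22.6 in F1 and 15.2 to 72.7 in F2, and animal 52 (15.2) sided with F1. It has no polyA tail, and the labels give polyA RNA as the measured molecule.

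The rest were enzymes and membrane proteins. Gpd2, the mitochondrial glycerol-3-phosphate dehydrogenase, was at 1755 to 2611 in F1 and 2612 to 3164 in F2 with animal 52 (2612) on the F2 side, and had a log2 fold change of 0.34 ± 0.107. B4galt4, a galactosyltransferase of the Golgi, had 0.50 ± 0.165, with animal 52 (386) on the F2 side. Polg, the catalytic subunit of the mitochondrial DNA polymerase, had -0.38 ± 0.125, and animal 52 (1098) sided with F1. Capn10, a calpain protease, had -0.45 ± 0.152, and animal 52 (1218) lay near the F1 mean. Ntmt1, which methylates protein N termini, had -0.30 ± 0.112, and animal 52 (658) sided with F1. Lhfpl6, a tetraspan membrane protein, had 0.38 ± 0.126 with animal 52 (2014) on the F2 side, and Smco4 had 0.32 ± 0.11 with animal 52 (1860.1) on the F1 side.

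**Figure D5:**
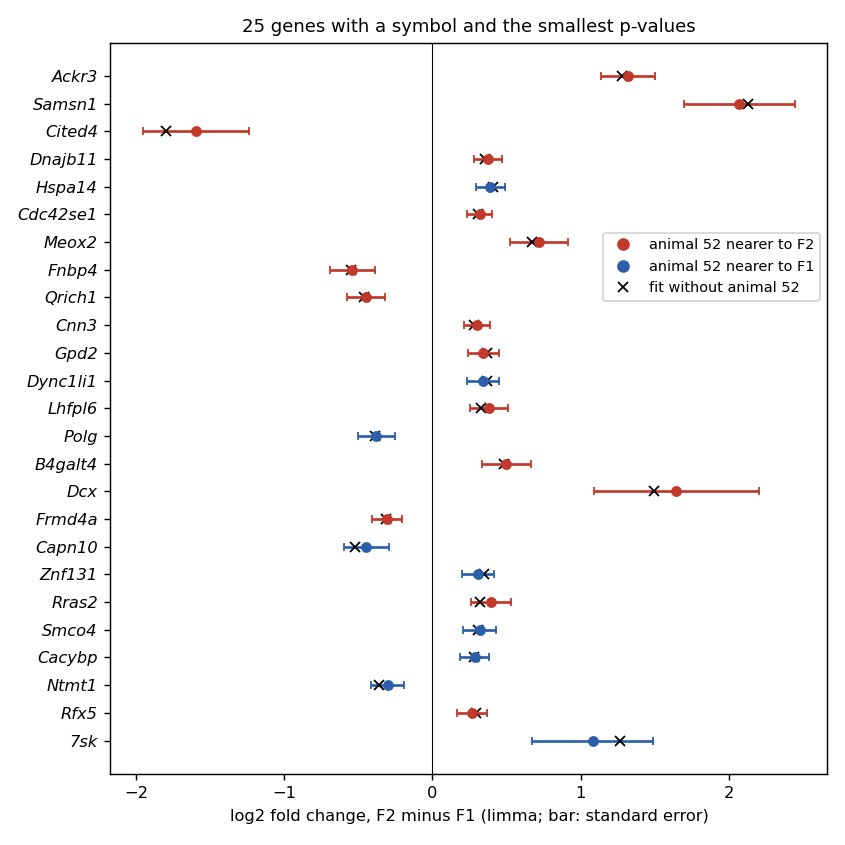
Points give the log2 fold change of F2 minus F1 with its standard error (limma, 12 libraries) for the 25 genes with a symbol and the smallest p-values, red where animal 52 lies nearer to the other F2 libraries and blue where it lies nearer to F1, and crosses give the fit without animal 52. There are 16 red and 9 blue points, a split that the choice of genes by a fit with animal 52 as F2 favours towards red, and no cross lies on the other side of 0.

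Without animal 52, 12 of 138 genes with a symbol passed (limma), 8.70% beside 10% of all genes. They were Ackr3, Samsn1, Cited4, Dnajb11, Hspa14, Cdc42se1, Capn10, Ntmt1, Ccdc86, Scx, Ifi27l2 and Ifi27, and animal 52 sided with F2 in 5 and with F1 in 7. Ifi27l2, an interferon-induced gene of the mitochondrial membrane, was at 4705 to 6467 with a median of 6040.5 in F1 and 2347 to 4179 in the other 5 F2 libraries, and at 10676 in animal 52, above every F1 library and nearer to F1. Without animal 52 it fell by 0.88 (limma adjusted p = 0.00447), whereas with all libraries the log2 fold change was -0.59 ± 0.278 (adjusted p = 0.266). Its relative Ifi27 was at 2549 to 4088 in F1, 1909.8 to 3079 in the other 5 and 6830.2 in animal 52, again nearer to F1, and fell by 0.53 without animal 52 (adjusted p = 0.0409). These 2 genes are members of 1 family, and how the authors' counting divided reads between close copies is not given in the sources used here. Scx, the tendon factor scleraxis, had -0.73 without animal 52 (limma adjusted p = 0.0347) and Ccdc86, a nucleolar protein, had -0.63 (limma adjusted p = 0.0468), with animal 52 on the F1 side in both.

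Lipid genes that respond to LXR and SREBP gave no call between generations. Of Abcg1, a cholesterol exporter, Srebf1, the sterol response factor, Scd1, the stearoyl-CoA desaturase, and Mylip, which targets the LDL receptor for degradation, 0 of 4 passed with limma, 0 had an unadjusted p under 0.05 and 0 passed with DESeq2. Their log2 fold changes were 0.06 ± 0.472, -0.05 ± 0.45, -0.01 ± 0.335 and -0.19 ± 0.182 SE, and the spread within generations was wide, with Srebf1 at 21.2 to 227 in F1 and 47.1 to 136 in F2. Animal 52 was nearer to F1 in the first 3 and nearer to F2 in Mylip. These changes are averages over both arms, whose medians had opposite signs. Over the 4 genes the median log2 fold change was 0.22 in the PC arm, with 3 above 0. In the PR arm it was -0.26, with 0 above 0. Between the arms no gene differed past the threshold with limma. The symbols come from the list for PC-C vs PC-H, so the PC arm is not independent of that list. Of 5 genes of endoplasmic reticulum stress, 0 passed with limma, 1 (Dnajb11) had an unadjusted p under 0.05 and 1 passed with DESeq2. Xbp1, the factor spliced in that response, was at 3942 to 6303 in F1 and 4867 to 6528 in F2 (log2 fold change 0.18 ± 0.106, animal 52 nearer to F1), and Manf, a secreted factor induced by it, had 0.16 ± 0.128 (animal 52 nearer to F2). In the list of interferon-stimulated genes 0 of 6 tested passed with limma, 0 had an unadjusted p under 0.05 and 0 passed with DESeq2, and 2 passed without animal 52.

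The counts of the lists above and of the other lists stand beside 2.60% of all genes passing with limma and 4.84% with DESeq2. An unadjusted p under 0.05 (limma) was seen in 19.2% of all genes. The DESeq2 share is over 18149 genes, of which 14105 had an adjusted p. Of 8 mesenchymal and matrix genes, 0 passed with limma, 3 had an unadjusted p under 0.05, 2 passed with DESeq2, and the median log2 fold change was 0.07. Among 9 genes of mitochondrial import and respiration, 0 passed with limma, 1 had an unadjusted p under 0.05 and 1 passed with DESeq2, at a median of 0.06. The 5 genes that maintain or translate the mitochondrial genome had a median of -0.22, with 0 calls with limma or DESeq2 and 1 unadjusted p under 0.05. For 11 chromatin and transcription factors these were 0 calls with limma, 4 at an unadjusted p under 0.05 and 2 with DESeq2, at a median of -0.08. For 12 genes of ribosome biogenesis, splicing and translation they were 0, 3 and 1, at a median of -0.00, and for 7 ubiquitin and cell cycle genes 0, 1 and 0, at a median of 0.17. Of 4 receptor and ligand genes tested, Ackr3 alone passed with limma and with DESeq2, and 3 had an unadjusted p under 0.05. In a list of 7 other lipid and energy genes, 3 had an unadjusted p under 0.05. Cited4, the coactivator described above, alone passed with limma, and 2, Cited4 and Gpd2, passed with DESeq2. The 2 non-coding RNAs tested gave 0 calls with limma or DESeq2 and 1 unadjusted p under 0.05. A further 9 genes with a symbol were under the filter and were not tested: Bach2, Cap11, Fzd7, Gprin3, Hpdl, Ndp, Pou2af1, Rnasep_nuc and Siglec1.

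Within the PC arm alone, where animal 52 is 1 of 3 F2 animals, 0 genes passed with limma (0%), 1054 had an unadjusted p under 0.05, and DESeq2 called 33 and edgeR 0. Without animal 52 the PC arm had 194 calls with limma, 600 with DESeq2 and 172 with edgeR, from 2 F2 animals against 3. Within the PR arm 3 genes passed with limma (0.0227%), 1955 had an unadjusted p under 0.05, and DESeq2 called 479 and edgeR 0. Since both arms shared 1 estimate of the spread, leaving animal 52 out of the PC arm also raised the PR count, to 340. The difference between the arms in the change from F1 to F2 passed for 0 genes with limma (0%). Unadjusted, 431 genes had a p under 0.05, and there were 3 calls with DESeq2 and 0 with edgeR. For Ackr3 the change in the PR arm minus that in the PC arm was 0.72 ± 0.329 SE on the log2 scale and did not pass (limma adjusted p = 0.9998).

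On the high fat diet the contrast of generations called 0 of 13224 genes (limma without animal 51, 0%), and 1790 genes were under 0.05 before adjustment. This fit used 23 libraries in 8 groups, in which the control diet contrast called 657 genes rather than 344. DESeq2 and edgeR were not run for the high fat contrast. The change from F1 to F2 differed between diets in 135 genes (1.02% of 13224), 96 of them among the 344, and in 2071 at an unadjusted p under 0.05. DESeq2 called 423 and edgeR 92. The limma count was 0 with animal 51 included (1098 at an unadjusted p under 0.05) and 454 without animal 52. With another control animal left out it was 21 to 166, the lowest without animal 54, so this count rests on which animals enter. Samsn1 had a log2 fold change of 2.07 on the control diet and -0.75 on the high fat diet, where it stood at 7.73 to 87.7 in F1 and 5.61 to 43.8 in F2, and the difference passed (limma adjusted p = 0.0229). Qrich1 had -0.45 on the control diet and 0.76 on the high fat diet (adjusted p of the difference = 0.0229), and Frmd4a had -0.31 and 0.54 (adjusted p = 0.0229). For Hspa14 the values were 0.39 and -0.25 (adjusted p = 0.0361). In Ackr3 the high fat value was 0.13, and the difference between diets did not pass (limma adjusted p = 0.125).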

How the data were processed

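PolyA RNA of 24 guinea pigs was sequenced, 1 library per animal. The authors used FastQC, Trimmomatic, STAR and DESeq2; versions, genome build, annotation and counting program are not given in the sources used here. The deposited table holds a signal value per gene and library, the read count divided by a DESeq2 size factor, and 100% of values came out as whole reads within 0.001 of a read.

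The limma 3.58.1 trend method was applied to log2 values (signal plus 1) of genes whose mean over the fitted libraries reached 10, with generation and F0 ration as terms (9 residual and 5.52 prior degrees of freedom). Tests within and between arms used a mean per group, and those across diets 23 libraries in 8 groups, without animal 51. Benjamini-Hochberg adjusted p-values under 0.05 were called. DESeq2 1.42.0 and edgeR 4.0.16 (R 4.3.3) were run on the recovered reads as alternatives. The methods were also run on simulated counts with known changes, drawn for independent libraries without an animal that stood apart. That run cannot speak to the dependence of the counts on single animals.

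Groups came from the sample titles. Named were the genes with a symbol past the threshold, then those of smallest p up to 25, and the 2 identifiers with the largest rise and the 2 with the largest fall among called genes whose mean reached 50 and whose generations were apart once animal 52 was set aside. The genes named for passing without animal 52, and examples of lists, come in addition. The members and lists were chosen with earlier results of these data known. Symbols were paired through the study's list for PC-C vs PC-H, whose fold changes and p-values were not used. Some genes, and all positions and sequences, are not reported here. P-values measure the spread between animals, which may share litters. The reads carry no molecular identifiers, so a bound against a count of 0 covers counting error only.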

Additional observations from a re-analysis of the deposited data

Results flagged for a closer look

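Of 58 sets of 6 libraries checked, 6 had 1 library far from the other 5 by Dixon's criterion, where chance gives about 1 in 20 in sets chosen without regard to it. Animal 52 was that library in 4 of the 6, all in identifiers that were chosen with animal 52 set aside, so the chance rate does not apply to them. It was at 0 in ENSCPOG00000036145 and at 0 in ENSCPOG00000031832, where the other F2 libraries were high, and at 834 in ENSCPOG00000003379 and 459 in ENSCPOG00000039839, where they were at or near 0. In Meox2 the lowest of the 6 F2 libraries was PC-C-C animal 55, at 537. In B4galt4 the highest was PR-C-C animal 41, at 527.

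The change from F1 to F2 differed between the control and the high fat diet in 135 genes (limma, 23 libraries). Among the named genes the difference of the changes, control minus high fat diet on the log2 scale, was 2.82 for Samsn1 (limma adjusted p = 0.0229) and 0.65 for Hspa14 (0.0361). It was -1.21 for Qrich1 and -0.85 for Frmd4a, both at an adjusted p of 0.0229. For identifiers it was 7.67 in ENSCPOG00000036145 (limma adjusted p = 0.0281), 6.12 in ENSCPOG00000031832 (0.041) and -6.90 in ENSCPOG00000003379 (0.0229), sizes that depend on the pseudocount.

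PC-C-H animal 51, which entered no test other than 1 alternative, lay nearer to the F2 control mean in 806 of the 1316 genes called without animal 52 (61.2%). In ENSCPOG00000036145 it stood at 476 and in ENSCPOG00000031832 at 77.1, against 0 in the other F2 high fat libraries.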

How the results depend on the processing

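The count of 344 genes in F2 against F1 was 878 with DESeq2, 223 with edgeR, 657 when the spread was taken from 23 libraries in 8 groups and 136 with sex as a covariate. With 1 animal left out it ranged from 0 to 1316. Chosen after seeing the data, DESeq2 without animal 52 gave 1981 and edgeR without it 1290. TMM scaling gave 346, a pseudocount of 0.1 gave 312 and of 10 gave 382, no filter gave 318 and no ration term 390. Within the PC arm the count of 0 was 33 with DESeq2, 600 with DESeq2 and 172 with edgeR without animal 52, and 0 to 194 with 1 animal left out. Within the PR arm the count of 3 was 302 with 23 libraries, 479 with DESeq2, 0 with edgeR, 0 at a pseudocount of 0.1, 28 at 10 and 0 with sex, 817 with DESeq2 and 299 with edgeR without animal 52, and 0 to 340 with 1 animal left out. The difference between arms (0) was 3 with DESeq2 and 0 to 1 with 1 animal left out. The difference between diets (135) was 423 with DESeq2, 0 with animal 51 included, 917 with DESeq2 and 415 with edgeR without animal 52, and 21 to 454 with 1 control animal left out. The causes of these shifts were not tested. Over the named genes, 0 of the alternative values changed sign, 34 lost a call, 45 gained one and 586 did neither. These numbers leave out DESeq2 with all libraries for ENSCPOG00000003379 and ENSCPOG00000039839, to which it gave no p. No paired analysis was possible because each animal has its own number. Counting error alone is not the spread between animals: chi-square over its degrees of freedom was 29.7 in the closest pair of a group, animals 54 and 55. Depth limits the genes with few reads, which were left out of the limma tests.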
